A study of Mus musculus with 8 samples.

Results

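Mitochondrial ribosomal protein genes were examined in cultures of mouse Tregs, the regulatory CD4 T cells that are defined by the transcription factor FOXP3 and hold immune responses in check. The genes were taken by name, as every row of the deposited table whose symbol begins with Mrpl or Mrps followed by a digit. This rule gave 75 of the 19703 genes in the table, 47 with Mrpl names and 28 with Mrps names, and used no measured value. All 75 matched the GENCODE M21 annotation (GRCm38) by gene identifier and lay on 17 chromosomes. By textbook assignment, 49 encode proteins of the large subunit and 25 proteins of the small subunit. The remaining gene, Mrps36, keeps a ribosomal name although its product is a component of the 2-oxoglutarate dehydrogenase complex.

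The cells came from reporter mice in which GFP marks FOXP3, labelled wild type. In both groups they received beads that engage CD3 and CD28 in medium with 3 cytokines that push T cells towards IL-17 production (IL6, IL23 and IL1B), and RNA was taken on day 6. The FcCD70 group was also given FcCD70, soluble CD70 that engages the costimulatory receptor CD27 of T cells, and the untreated group was not. The series asks what CD27 signalling changes in Tregs under these conditions. The labels name 4 samples in each group, numbered 1 to 4, and 3 FcCD70 and 4 untreated samples have a column of their own. The FcCD70 library numbered 4 was rebuilt from the authors' mean over 8 libraries and is used only where it is named. In each of the 8 samples the treatment field says the reverse of the title. Groups were taken from the titles, and all directions below depend on that choice. Nothing in the labels says whether libraries came from separate animals, and a p-value here reflects only how far these samples spread, which may be a technical spread.

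The mitochondrial ribosome translates the small set of respiratory chain subunits encoded in mitochondrial DNA. Its RNAs come from the mitochondrial genome, whereas all of its proteins are encoded in the nucleus, made in the cytosol and imported. Some of them have counterparts in bacterial ribosomes and others exist only in mitochondrial ones. Respiratory function is known to matter for Tregs, which lean on oxidative metabolism more than other activated CD4 T cells do. Here 47 of the 74 ribosomal genes by role have a bacterial counterpart and 27 belong to the mitochondria-only class.

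FcCD70 libraries 1 to 3 held 19247437, 18183470 and 23359331 reads, and untreated libraries 1 to 4 held 18159685, 19715108, 21200214 and 23527899 reads. Values are the authors' normalized counts, that is reads divided by 1 size factor per library, and levels summed over genes are given in RPM, reads scaled to the same total of gene-assigned reads in each library. A count of 3 reads, taken as the floor, was worth between 2.61 and 3.37 normalized counts. The defining Treg and T cell markers were present, with the 8 markers summing to 3911 to 4397 RPM in FcCD70 libraries and 4163 to 4402 RPM in untreated libraries. Myeloid and dendritic, NK and erythroid markers were near 0, with myeloid and dendritic markers at most at 0.715 RPM. CD8 T cell markers stood at 5.93 to 9.84 RPM over the 7 libraries, and Epcam and Col1a1 together at 4.88 to 8.96 RPM. The B cell list, led by Ighm, was far higher (1595 to 1852 RPM in FcCD70 libraries and 1604 to 1798 RPM in untreated ones). Its 4 tested genes were far apart, from 7.07 to 20248 normalized counts per kilobase of transcript with a median of 71.4. The sum therefore does not stand for each B cell marker. Of the 75 members, 74 had a mean normalized count of at least 10 and were tested. Mrpl53, which encodes a large subunit protein (GRCm38, chr6:83109040-83109939), was listed at 0 in every library, and its annotated span is overlapped by Gm42688 on the same strand and Ccdc142os on the opposite strand.

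The promoters of 66 members were found in RefSeq (GRCm38.p6) as windows of 300 bases around a gene's start. They were searched on both strands for 4 motifs of factors that are known to act on nuclear genes of mitochondrial function or on growth genes. The windows of 4 members are shown because the genes recur below. Mrps18c had the highest fitted fold change, Mrpl57 the next one, Mrpl45 the most NRF1 matches and Mrpl24 the highest level per kilobase. Capitals mark the matches to GCGCA and GCGC with 1 base of any kind between them (NRF1), CCGGAAG (ETS factors such as GABPA), ATGGCGG (YY1) or CACGTG (the E-box bound by MYC), read 5′ to 3′ on the plus strand, on which all 4 genes lie.
Mrps18c, chr5:100798509-100798808: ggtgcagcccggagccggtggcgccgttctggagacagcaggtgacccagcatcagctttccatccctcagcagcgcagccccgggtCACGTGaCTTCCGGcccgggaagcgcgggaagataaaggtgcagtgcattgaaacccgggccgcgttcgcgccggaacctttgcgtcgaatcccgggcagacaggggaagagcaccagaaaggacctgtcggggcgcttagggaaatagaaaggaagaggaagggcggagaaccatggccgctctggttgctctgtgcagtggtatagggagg
Mrpl57, chr14:57825989-57826288: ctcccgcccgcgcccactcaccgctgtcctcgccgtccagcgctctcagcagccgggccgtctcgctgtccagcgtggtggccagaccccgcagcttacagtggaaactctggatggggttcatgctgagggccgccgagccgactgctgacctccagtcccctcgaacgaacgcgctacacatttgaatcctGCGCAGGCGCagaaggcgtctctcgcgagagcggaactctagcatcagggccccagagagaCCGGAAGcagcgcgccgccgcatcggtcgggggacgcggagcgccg
Mrpl45, chr11:97315466-97315765: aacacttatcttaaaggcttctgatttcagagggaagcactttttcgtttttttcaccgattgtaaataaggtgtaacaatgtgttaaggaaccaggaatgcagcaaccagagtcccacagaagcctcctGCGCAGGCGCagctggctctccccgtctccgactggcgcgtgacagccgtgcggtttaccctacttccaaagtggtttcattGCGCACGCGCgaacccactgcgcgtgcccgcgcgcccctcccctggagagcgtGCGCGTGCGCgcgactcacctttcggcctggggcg
Mrpl24, chr3:87919294-87919593: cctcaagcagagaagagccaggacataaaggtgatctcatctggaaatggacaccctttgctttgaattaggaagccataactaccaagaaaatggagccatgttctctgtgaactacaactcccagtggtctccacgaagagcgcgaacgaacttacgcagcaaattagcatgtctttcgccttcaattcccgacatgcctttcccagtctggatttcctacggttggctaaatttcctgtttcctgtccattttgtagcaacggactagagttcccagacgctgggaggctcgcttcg
The Mrps18c window held an E-box next to an ETS match on the opposite strand, the Mrpl57 window an NRF1 and an ETS match, the Mrpl45 window 3 NRF1 matches and the Mrpl24 window none. Some genes have more than 1 window, and the 66 members had 69, Mrpl53 included. Of these 69 windows, 23 (33.3%) held the ETS motif, against 18.1% of the 10970 promoters of tested genes. The YY1 motif stood in 13 windows (18.8%, against 8.28%), the NRF1 motif in 12 (17.4%, against 10.6%) and the E-box in 7 (10.1%, against 10.05%). The E-box count includes overlapping Mrpl2 windows that hold the same site, and by member it was 5 of 66 (7.58%). Of all 32851 promoters in the table, 8.86% held the ETS motif, 4.05% the YY1 motif, 4.60% the NRF1 motif and 7.15% the E-box. At least 1 of the 4 motifs was found in 44 windows (63.8%), against 38.4% of the promoters of tested genes. A match is a description of letters and not evidence of binding.

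Mitochondrial ribosomal protein genes were expressed at moderate levels that differed widely between members. Since longer transcripts collect more reads, levels are compared per kilobase of transcript, using the length of 1 annotated principal transcript per gene (418 to 7300 bases, median 1226). The isoform that these cells used was not measured. The median member stood at 463 normalized counts per kilobase, against 274 over all genes tested. The median was 530 for large subunit genes and 383 for small subunit genes, and 500 for genes with a bacterial counterpart and 381 for the mitochondria-only class.

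Mrpl24, which encodes a large subunit protein with a bacterial counterpart, had the highest level, 2544 ± 345 normalized counts per kilobase in FcCD70 libraries (SD, n = 3) and 2213 ± 111 in untreated libraries (SD, n = 4). Mrpl30 followed with 2237 ± 438 in FcCD70 libraries and 2299 ± 458 in untreated libraries. Those 2 genes did not differ in level beyond their spread. Mrpl52, a mitochondria-only large subunit protein, stood at 1848 ± 408 normalized counts per kilobase in FcCD70 libraries and 1697 ± 502 in untreated libraries, and Mrps17, a small subunit protein, at 1700 ± 138 in FcCD70 libraries and 1690 ± 52.8 in untreated libraries. These 2 genes also overlapped in level. At the low end stood Mrpl17 with 74.7 ± 19.9 in FcCD70 libraries and 75.0 ± 9.9 in untreated libraries, followed by Mrps25 with 79.4 ± 10.5 in FcCD70 libraries and 77.2 ± 6.1 in untreated libraries. Mrpl47 had 110 ± 31.1 in FcCD70 libraries and 97.0 ± 8.1 in untreated libraries, and Mrpl57 had 143 ± 32.9 in FcCD70 libraries and 121 ± 28.1 in untreated libraries. The highest member mean was 31.5 times the lowest. The annotated transcripts of all 4 low genes are long (2877 to 7300 bases), which lowers a level per kilobase wherever a shorter form is used.

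No mitochondrial ribosomal protein gene differed between FcCD70 and untreated libraries in the test across all genes. The test was limma on log2(normalized count + 1) with the replicate number as a block and Benjamini-Hochberg adjustment. Of 74 members 0 passed at an adjusted p under 0.05, beside 0.0% of the 11083 genes tested. At an unadjusted p under 0.05 there were 0 members as well, beside 1.7% of all genes, and edgeR and DESeq2 also called 0 members. The adjusted p of every member was 0.9998 (limma), and the lowest unadjusted p was 0.0608 for Mrpl57.

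Fitted fold changes were small and mostly above 0. They ran between -0.11 and 0.37 on the log2 scale with a median of 0.08, against -0.0035 over all genes tested. In all, 62 members lay above 0 and 12 below, beside 49.1% of all genes above. The 95% interval held 0 for each of the 74 members, with a median half-width of 0.38. Changes smaller than that were therefore not resolved for a typical member. Large subunit genes had a median of 0.07 (38 of 48 above 0) and small subunit genes 0.10 (23 of 25 above 0).

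The direction of that median rested on 1 library. Without the libraries numbered 2 the median was -0.07, with 53 of 74 members below 0, whereas without those numbered 1 or 3 it was 0.17 or 0.19. Without the FcCD70 library numbered 2 alone, in a fit with libraries 1 and 2 set against 3 and 4 as a covariate, it was -0.06 with 51 below 0, and 0 members passed. In that fit 5 members had an unadjusted p under 0.05, beside 9.1% of all genes, and 0.0541% of all genes passed the adjusted threshold (limma). Adding the rebuilt FcCD70 library numbered 4 in place of it gave -0.06, and adding it to the 7 libraries gave 0.06.

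**Figure D1:**
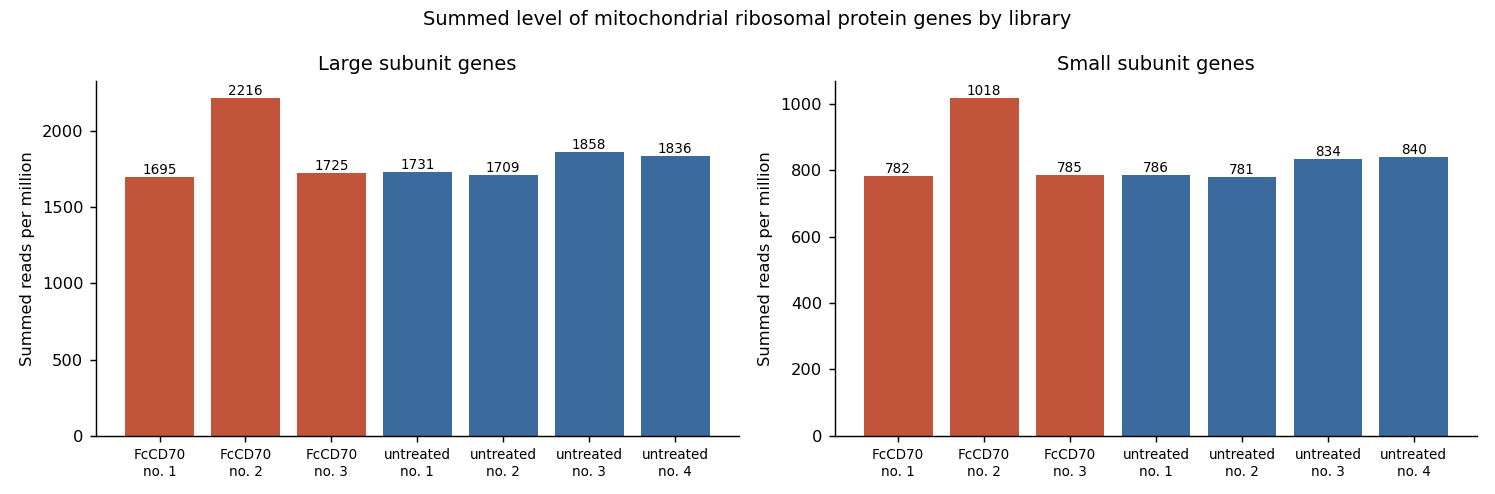
Summed level in RPM (vertical axes, from 0) of the large subunit genes (left) and the small subunit genes (right) in each FcCD70 library (red) and each untreated library (blue), 1 bar per library with its value. The FcCD70 library numbered 2 stands at 2216 and 1018 RPM, above the other 6 libraries, which lie between 1695 and 1858 RPM and between 781 and 840 RPM.

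Summed over all 75 members, the level was 2486, 3250 and 2524 RPM in FcCD70 libraries 1 to 3 and 2528, 2501, 2706 and 2690 RPM in untreated libraries 1 to 4. Library 2 of the FcCD70 group stood alone at the top, and the other 2 FcCD70 libraries lay near the low end of the untreated ones. The group means were 2753 ± 430 RPM in FcCD70 libraries (SD, n = 3) and 2606 ± 106 RPM in untreated libraries (SD, n = 4), a difference smaller than the FcCD70 spread. In the bars of summed level, the FcCD70 library numbered 2 is the highest for both subunits, and the order of the other 6 differs between them. The ratio of large to small subunit reads stayed between 2.17 and 2.20 in FcCD70 libraries and between 2.19 and 2.23 in untreated libraries. In bulk RNA, a change in RNA per cell and a change in the makeup of the culture cannot be told apart.

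The FcCD70 library numbered 2 had the highest value of the 7 libraries in 57 of 74 members (77.0%), beside 27.3% of all genes. It had the lowest in 2 members, beside 28.4% of all genes. Set against the median of the other 6 libraries, it was higher in 67 members, with a median difference of 0.36 on the log2 scale and of 0.01 over all genes. No other library was highest in more than 6 members. Lowest values fell to the FcCD70 library numbered 1 in 26 members and to the untreated library numbered 2 in 20.

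**Figure D2:**
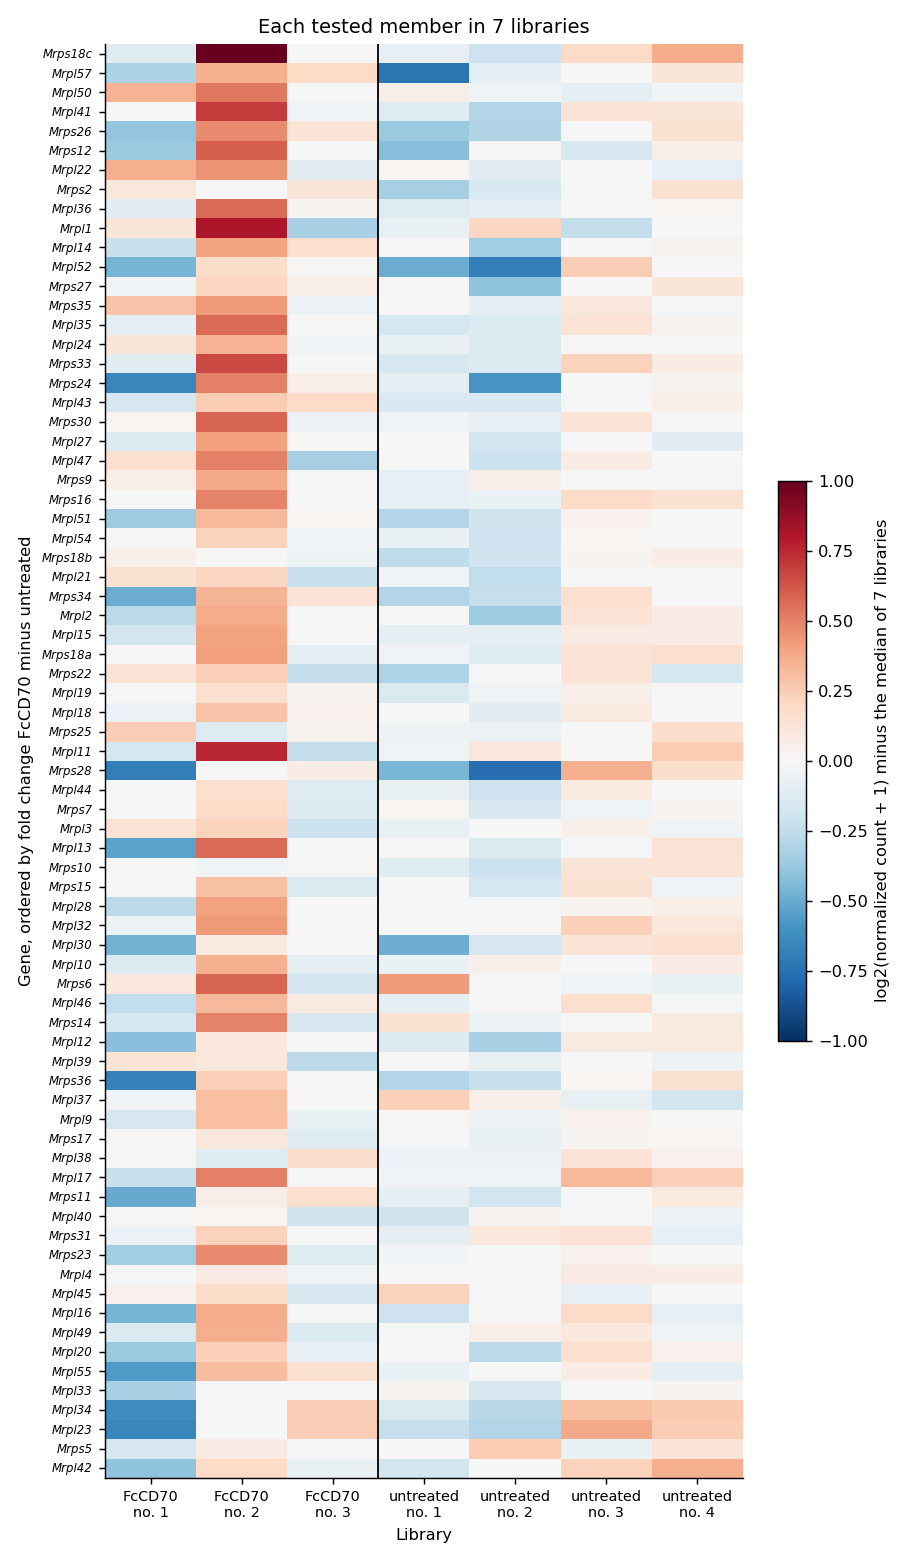
Each of the 74 tested members (rows, ordered by fitted fold change) in 3 FcCD70 and 4 untreated libraries (columns), coloured by log2(normalized count + 1) minus the median of the 7 libraries, with colours capped at 1. The column of the FcCD70 library numbered 2 is red in most rows from top to bottom, and no other column is.

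Mrps18c encodes 1 of the 3 mammalian relatives of the bacterial ribosomal protein S18. It had 214, 517 and 234 normalized counts in FcCD70 libraries 1 to 3 and 221, 202, 269 and 303 in untreated libraries 1 to 4. Its FcCD70 library numbered 2 was 2.27 times the median of the other 6, and the remaining FcCD70 values lay inside the untreated range. The fitted log2 fold change was 0.37 (SE 0.29, unadjusted p = 0.232, limma), and leaving out the libraries numbered 2 gave -0.13. The other 2 relatives did not share that peak to the same degree. Mrps18a, placed in the large subunit, had 454, 603 and 424 normalized counts in FcCD70 libraries and 443, 416, 502 and 506 in untreated ones. Mrps18b had 498, 482 and 466 in FcCD70 libraries and 404, 420, 490 and 507 in untreated ones, where the groups overlapped and library 2 was not the highest. The differences between the 3 relatives were not tested.

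Among the large subunit genes, Mrpl1 encodes the protein of the L1 stalk, which guides spent tRNA out of the ribosome. It had 585, 945 and 429 normalized counts in FcCD70 libraries and 512, 623, 456 and 538 in untreated libraries, so both libraries numbered 2 were the highest of their group. Mrpl11 and Mrpl12 belong to the other stalk, which engages translation factors. Mrpl11 had 346, 662 and 332 in FcCD70 libraries and 382, 424, 391 and 467 in untreated libraries, with FcCD70 libraries 1 and 3 below every untreated library and library 2 above all of them. Mrpl12 had 554, 803 and 743 in FcCD70 libraries and 676, 593, 789 and 795 in untreated libraries, with no separation of groups. Their log2 fold changes were 0.09 (SE 0.20) for Mrpl11 and 0.02 (SE 0.17) for Mrpl12, and 0.23 (SE 0.17) for Mrpl1.

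Mrpl57, a mitochondria-only protein of the large subunit, and Mrpl50, another one, had the lowest unadjusted p among the members named here. Mrpl57 had 307, 490 and 440 normalized counts in FcCD70 libraries and 231, 359, 383 and 416 in untreated libraries. Each FcCD70 library was above the untreated library of the same number, yet the groups overlapped (log2 fold change 0.35, SE 0.17, unadjusted p = 0.0608, adjusted p = 0.9998, limma). Mrpl50 had 868, 981 and 682 in FcCD70 libraries and 709, 660, 642 and 668 in untreated libraries. FcCD70 libraries 1 and 2 were above all untreated libraries and library 3 lay inside their range (0.32, SE 0.15, unadjusted p = 0.0633).

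Mrpl41, another mitochondria-only protein, had 466, 759 and 452 normalized counts in FcCD70 libraries and 427, 380, 513 and 506 in untreated libraries, again with library 2 alone above the rest. Mrpl3, a core protein near the site of peptide bond formation, had 1305, 1375 and 1017 in FcCD70 libraries and 1119, 1178, 1218 and 1146 in untreated libraries. For Mrpl3 FcCD70 libraries 1 and 2 were above and library 3 below all untreated libraries. Mrpl45, which lies at the exit of the peptide tunnel and links the ribosome to the inner membrane, had 1356, 1493 and 1180 in FcCD70 libraries and 1541, 1302, 1239 and 1313 in untreated libraries, with the highest value in an untreated library.

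In the small subunit, Mrps12, a protein of the decoding centre, had 214, 420 and 277 normalized counts in FcCD70 libraries and 206, 279, 249 and 291 in untreated libraries. FcCD70 library 2 was the highest, and the other 2 lay inside the untreated range. Mrps26 had 526, 962 and 757 in FcCD70 libraries and 536, 562, 693 and 771 in untreated libraries, with FcCD70 library 2 the highest and FcCD70 library 1 the lowest of all 7. Mrps2 had 726, 669 and 727 in FcCD70 libraries and 533, 603, 666 and 742 in untreated libraries. For Mrps2 all FcCD70 libraries were in the upper part of the untreated range, and library 2 was the lowest of the 3. Mrps2 was higher in FcCD70 in 3 of 3 same-numbered pairs (0.24, SE 0.15, unadjusted p = 0.134).

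The 6 lowest fitted fold changes lay between -0.11 and -0.04 and belonged to Mrpl42, Mrps5, Mrpl23, Mrpl34, Mrpl33 and Mrpl55. Mrpl42 had 512, 777 and 642 normalized counts in FcCD70 libraries and 596, 676, 792 and 868 in untreated libraries. Its groups overlapped, and its log2 fold change was -0.11 (SE 0.16). Mrps5 had 1060, 1258 and 1177 in FcCD70 libraries and 1190, 1421, 1135 and 1304 in untreated libraries, with -0.10 (SE 0.13). Mrpl23, a protein of the tunnel exit, had 214, 338 and 402 in FcCD70 libraries and 288, 276, 441 and 401 in untreated libraries. Mrpl34 had 205, 316 and 375 in FcCD70 libraries and 285, 260, 387 and 378 in untreated libraries. For both genes the FcCD70 library numbered 1 was the lowest of all, and untreated libraries 3 and 4 were above untreated libraries 1 and 2. Mrpl33 had 611, 759 and 771 in FcCD70 libraries and 777, 683, 764 and 777 in untreated libraries, and Mrpl55 had 127, 234 and 210 in FcCD70 libraries and 180, 189, 199 and 177 in untreated libraries. Both had their lowest value in the FcCD70 library numbered 1.

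The direction in which most members differed between same-numbered libraries changed from number to number. Between the libraries numbered 2, FcCD70 was higher in 70 of 74 members with a median difference of 0.44 on the log2 scale, beside 49.7% of all genes. Between those numbered 1 it was higher in 33 members (median -0.02, beside 50.0% of all genes), and between those numbered 3 in 19 members (median -0.10, beside 50.3%). With the rebuilt library numbered 4 it was higher in 41 members (median 0.01, beside 51.9%). The all-gene median was between -0.004 and 0.005 for each number.

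**Figure D3:**
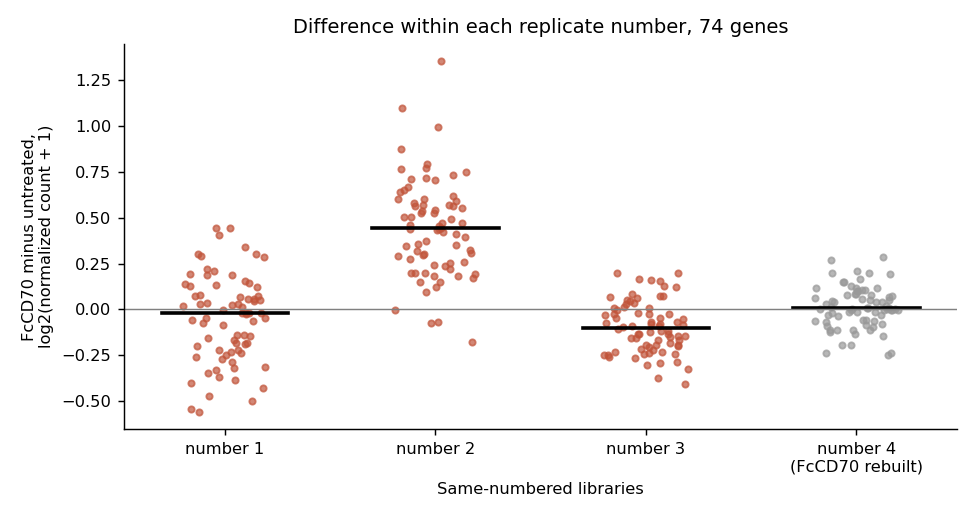
Difference FcCD70 minus untreated in log2(normalized count + 1) within each replicate number (vertical axis), 1 point per tested member and a bar at the median, with grey points for the rebuilt FcCD70 library numbered 4. The points of number 2 lie around 0.44 and those of numbers 1, 3 and 4 around -0.02, -0.10 and 0.01.

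FcCD70 exceeded untreated in 3 of 3 same-numbered pairs for 5 members, in 2 for 38 and in 1 for 31. The 5 were Mrpl36, Mrpl50, Mrpl57, Mrps2 and Mrps12. For 29 members FcCD70 was higher in the pair numbered 2 and lower in both other pairs. The shares of all genes for these counts over pairs were not computed, so the counts do not set the 5 members apart. No member had groups that did not overlap, beside 1.34% of all genes with FcCD70 wholly higher and 1.18% with it wholly lower. In the plot of differences within numbers, 3 of the 4 clouds straddle 0 and the remaining one lies almost wholly above it.

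The FcCD70 library numbered 2 also differed from the others in how its values ran with transcript length. Over all genes, its difference from the median of the other 6 libraries was 0.36 for transcripts of at most 1000 bases, 0.23 for 1000 to 2000, 0.01 for 2000 to 4000 and -0.28 for longer ones. Members are short, with a median of 1226 bases against 2870 over all genes tested. The members' own medians in those classes were 0.38 (24 members), 0.32 (28), 0.50 (15) and 0.44 (7). The members' median was closest to that of all genes in the shortest class and farthest above it in the longest. From the shortest to the longest class, the library was highest in 17 of 24, 23 of 28, 12 of 15 and 5 of 7 members, beside 56.8%, 48.8%, 24.7% and 7.90% of all genes. Across the 74 members the difference had r = 0.07 with log2 length (Spearman's rho 0.09), and across 11076 genes r = -0.36 (rho -0.49). These are descriptions across genes of the same libraries, and the part of length in the members' values was not tested.

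**Figure D4:**
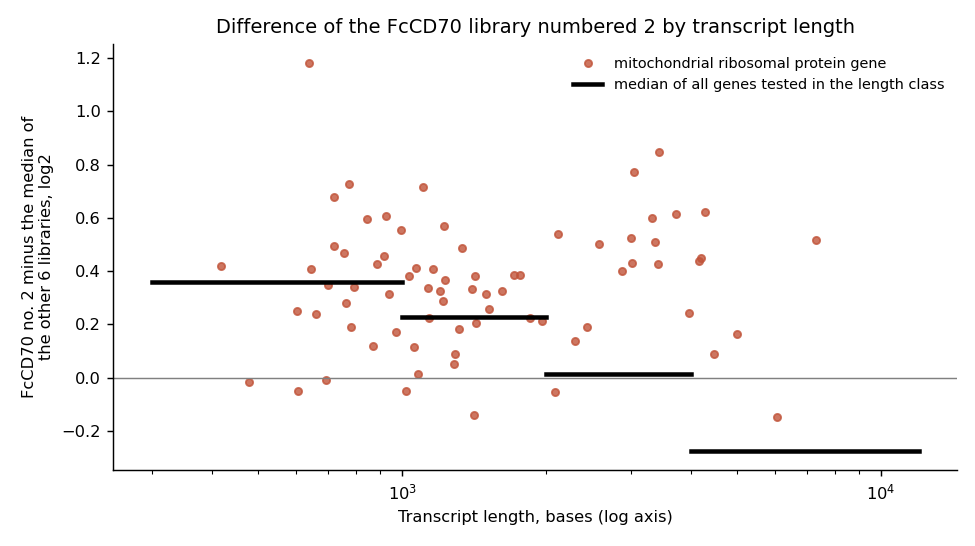
Difference of the FcCD70 library numbered 2 from the median of the other 6 libraries, in log2(normalized count + 1) (vertical axis), against transcript length in bases (log axis), with 1 point per tested member and black bars for the median of all genes tested in 4 length classes. The bars step down from 0.36 to -0.28 with length, whereas the members' class medians lie between 0.32 and 0.50.

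Of the longer members, Mrpl1 (3431 bases), Mrpl11 (3045 bases) and Mrps26 (4278 bases) were 1.80, 1.71 and 1.54 times the median of the other 6 libraries in the FcCD70 library numbered 2. Mrps25 was an exception among long members (6073 bases). It had 549, 422 and 474 normalized counts in FcCD70 libraries and 446, 445, 462 and 523 in untreated libraries, with FcCD70 library 2 the lowest of all 7. Members with an ETS match in the promoter window had a median difference of 0.42 in that library and those without one 0.34. With and without an NRF1 match the medians were 0.35 and 0.37.

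Some markers of Tregs and T cells were higher and others lower in this library than in the other 6. Foxp3, the defining Treg transcription factor, had 5881, 2788 and 5948 normalized counts in FcCD70 libraries and 6585, 5606, 4811 and 5126 in untreated libraries, with the FcCD70 library numbered 2 far below the rest. Il2ra, the IL-2 receptor alpha chain, had 15850, 13798 and 20337 in FcCD70 libraries and 17768, 19237, 22230 and 18434 in untreated libraries. Cd3g, a chain of the T cell receptor complex, had 11274, 15946 and 11676 in FcCD70 libraries and 10699, 10800, 12926 and 12403 in untreated libraries, with the FcCD70 library numbered 2 the highest. Against the median of the other 6 libraries, 3 of the 8 markers were higher there. That library was the highest of 7 for 2 markers (25.0%), Cd3g and Trac, beside 27.3% of all genes. It was the lowest for 3, Foxp3, Il2ra and Cd4, beside 28.4% of all genes. With only 8 markers, these counts do not set the markers apart from all genes. The 8 Treg and T cell markers summed to 3911 RPM in the FcCD70 library numbered 2, the lowest of 7. In that library the B cell markers (1734 RPM) lay inside the untreated range, the CD8 T cell markers stood at 9.84 RPM and Epcam and Col1a1 together at 8.96 RPM, both the highest of 7, and the NK and erythroid markers at 0. The part of these markers in the members' values was not tested.

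Levels of the members were also compared between replicate numbers, and no member passed the test of that number on all 7 libraries. Untreated libraries 1 and 2 lay below untreated libraries 3 and 4 in 65 of 74 members, with a median difference of -0.14 on the log2 scale. FcCD70 library 1 lay below FcCD70 library 3 in 47 members, with a median difference of -0.10. The sign was the same in both groups for 50 members. The shares of all genes for these counts were not computed. Over all genes tested, deviations from the group mean in FcCD70 library 1 correlated at 0.303 and 0.255 with untreated libraries 1 and 2. With untreated libraries 3 and 4 they correlated at -0.362 and -0.308. For FcCD70 library 3 the values were -0.359 and -0.293 with untreated libraries 1 and 2. With untreated libraries 3 and 4 they were 0.435 and 0.347. In an F test of the replicate number in the same limma fit, 0 members passed at an adjusted p under 0.05, beside 0.135% of all genes. At an unadjusted p under 0.05 there were 4 members, beside 8.02% of all genes. Without the FcCD70 library numbered 2, 8 members passed the adjusted threshold, beside 16.5% of all genes. These were Mrpl23, Mrpl30, Mrpl34, Mrpl52, Mrpl57, Mrps24, Mrps26 and Mrps34, and their share was below that of all genes. In that fit the numbers 2 and 4 held an untreated library only. With edgeR on all 7 libraries, 0 members and 0 of all genes were called for the replicate number.

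Mrpl30 had the lowest p of that test (unadjusted p = 0.0179, adjusted p = 0.435, limma). It had 1685, 2482 and 2334 normalized counts in FcCD70 libraries 1 to 3 and 1665, 2081, 2558 and 2608 in untreated libraries 1 to 4. The library numbered 1 was the lowest of each group. The same held for Mrpl57 (adjusted p = 0.453, limma) and, in the FcCD70 group alone, for Mrpl23 (adjusted p = 0.606, limma). Mrpl1 (adjusted p = 0.502, limma) was highest in the libraries numbered 2. Mrpl52 had 585, 919 and 814 in FcCD70 libraries and 572, 502, 956 and 808 in untreated libraries, where libraries 1 and 2 of the untreated group lay below libraries 3 and 4. Between untreated libraries the coefficient of variation of a member was 9.02% in the median, from 2.12% for Mrps23 to 35.4% for Mrps28. Mrps28 had 75.6, 122 and 129 in FcCD70 libraries and 89.1, 71.6, 157 and 138 in untreated libraries, and its annotated span is overlapped by Gm15466 on the same strand and Gm15467 on the opposite strand.

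Genes that build or serve the mitochondrial ribosome under other names were set beside the members. Of 6 other mitoribosome proteins, 0 passed (limma), beside 0.0% of all genes. Their median log2 fold change was 0.11, with 5 of 6 above 0, and the FcCD70 library numbered 2 was the highest of 7 for all 6. Chchd1 had 664, 1104 and 683 normalized counts in FcCD70 libraries and 728, 685, 811 and 758 in untreated libraries, and Dap3, a small subunit protein, had 2265, 2745 and 2362 in FcCD70 libraries and 2404, 2250, 2193 and 2326 in untreated libraries. In both genes library 2 of the FcCD70 group stood above the rest.

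Lists of factors that act on the ribosome had medians nearer to 0 than the members between the libraries numbered 2. Between them the median difference was 0.21 for 22 assembly and rRNA modification genes, 0.04 for 14 translation factors, -0.09 for 17 mitochondrial tRNA synthetases and 0.14 for 11 genes of mitochondrial transcription and its regulators. Over all libraries their median log2 fold changes were 0.03, 0.02, -0.0032 and -0.0034 in that order of lists, with 12, 8, 8 and 5 genes above 0. Median transcript lengths in the same order were 1954, 2563, 3336 and 2651 bases, against 1253 bases for the tested members. Whether length has a part in the contrast with the members was not tested. None of the 4 lists had a member past the adjusted threshold or at an unadjusted p under 0.05 (limma). The member with the smallest p was Mtg1, a GTPase of ribosome assembly, in the first list (log2 fold change -0.33, unadjusted p = 0.0906). In the others it was Tsfm, the exchange factor of the mitochondrial elongation factor (log2 fold change 0.25), Sars2, the seryl-tRNA synthetase (-0.31), and Tfb2m, a factor for mitochondrial transcription initiation (-0.33). The adjusted p of each of these genes was 0.9998 (limma).

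The medians of the nuclear-encoded respiratory chain genes and the cytosolic ribosomal protein genes had the same sign as the members' median at numbers 1, 2 and 3. Between the libraries numbered 2 the median difference was 0.55 over 89 respiratory chain genes and 0.68 over 74 cytosolic ribosomal protein genes. Between those numbered 1 it was -0.15 and -0.30, and between those numbered 3 it was -0.09 and -0.10. The respiratory chain genes were higher in FcCD70 for 85 of 89 genes at number 2 and for 24 at number 1. For the cytosolic ribosomal protein genes the counts were 74 of 74 and 1 of 74. None of either list passed the adjusted threshold (limma). The respiratory chain list was taken by gene symbol and includes symbols that begin with Atp5, named for the ATP synthase. The 1 gene of that list with an unadjusted p under 0.05 (limma) was Atp5s. At number 1 the members' median (-0.02, 33 of 74 higher) was thus nearer to 0 than that of either list, which was not tested. Median transcript lengths were 875 bases for the respiratory chain list and 777.5 for the cytosolic ribosomal list. Over all genes with transcripts of at most 1000 bases, the median difference was -0.12 at number 1 and -0.08 at number 3. The part of length in these lists was not tested.

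**Figure D5:**
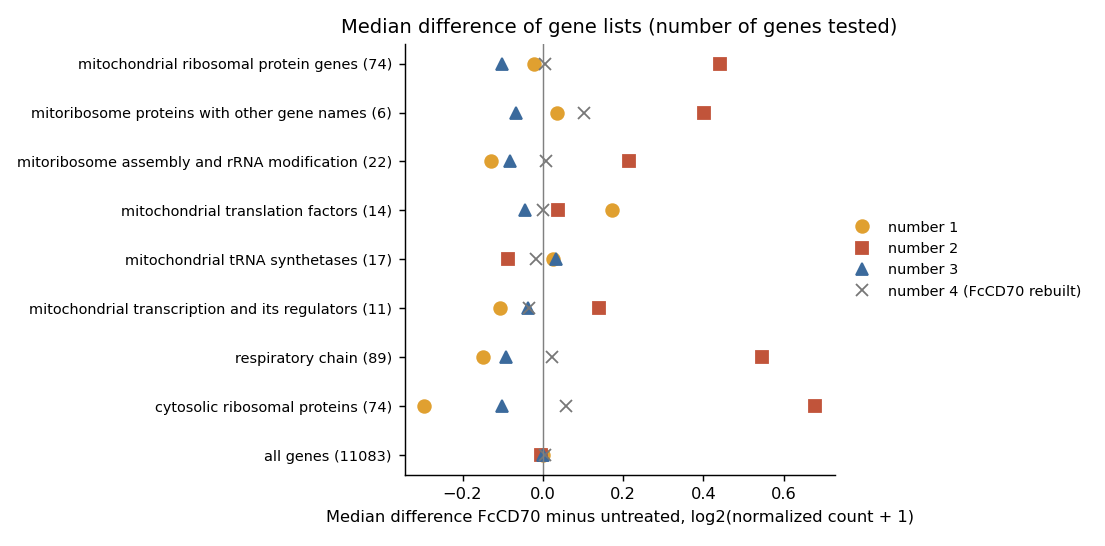
Median difference FcCD70 minus untreated in log2(normalized count + 1) (horizontal axis) of the members, of 7 other gene lists and of all genes, with the number of genes tested in brackets and 1 symbol per replicate number (cross: rebuilt FcCD70 library numbered 4). The squares of number 2 reach 0.44 for the members, 0.55 for the respiratory chain and 0.68 for cytosolic ribosomal proteins, and the tRNA synthetases lie at -0.09.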

How the data were processed

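Libraries were made from messenger RNA with a stranded kit, per the labels' protocols. The submitters' processing notes name GRCm38.p4 as the build and DESeq2, HTSeq, SAMtools and TopHat2 as tools. The strand setting used in counting is not given in the sources, and reads may be shared at the 34 members overlapped by a gene on the opposite strand and the 13 overlapped on the same strand.

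The signal columns of the deposited table are read counts over 1 size factor per library, as the values show. All values were multiples of 1 step per column within 0.01, which gave the reads. The authors' deposited log2 fold changes with their standard errors, the score they deposited (a Wald statistic) and their p-values come from DESeq2 per the file headers, and only those fold changes and p-values served, as an alternative, with the sign turned to FcCD70 minus untreated.

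The 11083 genes whose mean normalized count reached 10 were fitted with limma 3.58.1 (R 4.3.3, trend) on log2(value + 1), which understates changes of low genes. The replicate number entered as a block because the deposited table is named a paired analysis, which leaves 3 pairs behind a fold change and 2 residual degrees of freedom. The FcCD70 sample numbered 4 was rebuilt from the mean column (21031069 reads). Only the main limma fit was tested on simulated data, which held no replicate effect and no deviating library. Alternatives were edgeR 4.0.16, DESeq2 1.42.0, other pseudocounts, filters, scaling and left-out libraries. Intervals and floors cover counting error or sample spread only.

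The members, the gene lists and the tests were chosen with earlier results of these data known. Named members were the 6 highest and 6 lowest fold changes, the 4 highest and 4 lowest levels per kilobase, the 4 smallest p of the replicate number test, and 9 genes named for their role. Other genes, among them Mrps28, Chchd1 and Dap3, were chosen after their values were seen.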

Additional observations from a re-analysis of the deposited data

Results flagged for a closer look

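Mrpl33, a small protein of the large subunit, had an untreated library apart from the rest. Its untreated values were 777, 683, 764 and 777 normalized counts in libraries 1 to 4, and the gap below the lowest one, library 2, took up 0.862 of the range, which is past the 95% critical value of Dixon's test for 4 samples. Of the 74 members tested, 4 passed that value, and 1 of the 27 named members did. Chance gives about 1 in 20.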

How the results depend on the processing

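Over 21 alternatives 0 members passed the adjusted threshold for FcCD70 against untreated (lowest adjusted p 0.25, limma, Mrpl42), and the members' median log2 fold change ran between -0.07 and 0.19. The count of all genes called, 0 with limma, was 1 with DESeq2 and 0 to 19 over fits that left out libraries, reaching 19 without the libraries numbered 2, 6 without those numbered 3, and 6 without the FcCD70 library numbered 2 with the covariate. With the rebuilt library added it was 0, and 5 when the FcCD70 library numbered 2 was also left out (chosen after seeing the data). For the replicate number, 8 members passed without the FcCD70 library numbered 2, a fit in which numbers 2 and 4 held an untreated library only. Between same-numbered libraries, deviations from the group mean over all genes tested had correlations of 0.303, 0.014 and 0.435 for numbers 1, 2 and 3. Libraries of different number came close to the higher values. FcCD70 library 1 had 0.255 with untreated library 2, and FcCD70 library 3 had 0.347 with untreated library 4. The numbers are therefore not shown to pair the samples. With no replicate block 0 members passed, the median was 0.07, and the log2 fold changes of Mrpl12, Mrpl17 and Mrpl30 were -0.034, -0.030 and -0.037. With 8 libraries Mrpl17 was at -0.0020 and Mrps17 at -0.0031, and in the authors' deposited table at -0.0028 and -0.0034. Of 27 named members 7 kept their sign throughout (Mrpl24, Mrpl42, Mrpl50, Mrpl57, Mrps2, Mrps5 and Mrps18b). Over fits that left out libraries, the log2 fold changes of the other 20 ranged as follows: Mrpl1 -0.078 to 0.49, Mrpl11 -0.29 to 0.25, Mrpl12 -0.19 to 0.17, Mrpl17 -0.26 to 0.18, Mrpl23 -0.35 to 0.097, Mrpl3 -0.019 to 0.22, Mrpl30 -0.17 to 0.14, Mrpl33 -0.17 to 0.082, Mrpl34 -0.34 to 0.11, Mrpl41 -0.028 to 0.56, Mrpl45 -0.13 to 0.082, Mrpl47 -0.13 to 0.44, Mrpl52 -0.099 to 0.45, Mrpl55 -0.21 to 0.25, Mrps12 -0.058 to 0.43, Mrps17 -0.068 to 0.099, Mrps18a -0.10 to 0.28, Mrps18c -0.13 to 0.65, Mrps25 -0.064 to 0.17, Mrps26 -0.0058 to 0.45. The cause of these changes was not tested. Fits that leave out a number have 1 residual degree of freedom, and depth limits Mrps28 and other low members most.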

Other observations

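Lars2, the mitochondrial leucyl-tRNA synthetase, had the highest normalized count of all genes in each of the 7 libraries. Its level was far from that of the other mitochondrial tRNA synthetases. The list had a median of 135 normalized counts per kilobase and a maximum, that of Lars2, of 79278. Whether all reads counted for Lars2 came from its messenger RNA was not tested. It had 361239, 398502 and 272169 normalized counts in FcCD70 libraries 1 to 3 and 386333, 312177, 222978 and 207549 in untreated libraries 1 to 4. That was 1.81%, 1.95% and 1.32% of the reads in FcCD70 libraries and 1.93%, 1.57%, 1.08% and 1.01% in untreated libraries. FcCD70 libraries 1 and 2 were above FcCD70 library 3, untreated libraries 1 and 2 were above untreated libraries 3 and 4, and the log2 fold change was 0.18 (unadjusted p = 0.556, limma).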
